A study of Homo sapiens with 22 samples.

Results

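The 10 genes described here make cysteine and glutathione or answer to the antioxidant transcription factor NRF2. They are CTH and CBS (transsulfuration), GCLC, GCLM and GSS (glutathione synthesis), NFE2L2 (the gene of NRF2) and its targets HMOX1, NQO1, TXNRD1 and SRXN1. They were taken by name, without use of measured values, from 58278 Ensembl gene entries, and all 10 are listed in every library, CBS with 0 counts in 4 of the Ribo-Seq libraries. They were followed in LN308, an established astrocytoma-derived glial cell line that lacks p53. Cells received tunicamycin at 2.5 µg/ml, which blocks N-linked glycosylation, for 2 h or 6 h, with 3 libraries at each time in each assay. Others received thapsigargin at 200 nM, which empties the calcium store of the endoplasmic reticulum (ER) by blocking its SERCA pump, for 2 h or 6 h, with 1 library at each time in each assay. Untreated cells at 0 h had 3 libraries in each assay, and a vehicle control at the later times was not analysed here. The treatment protocol names a DMSO control, while the 0 h libraries are labelled untreated; whether they received DMSO is unclear, so in a fold against them the agent, its vehicle and the time cannot be told apart. RNA-Seq of total RNA gave transcript levels, and Ribo-Seq gave ribosome-protected fragments (footprints), which sample mRNAs under translation. For Ribo-Seq, the protocol gives 5 min of cycloheximide at 0.1 mg/ml, an inhibitor of translation elongation, before harvest, and names this step for stimulated cells; RNA-Seq has no such step. All groups are 1 cell line. Whether the replicates are separate cultures is not stated in the labels, so the spread behind each p-value may be technical.

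Transsulfuration passes the sulfur of homocysteine to cysteine: CBS joins homocysteine and serine into cystathionine, and CTH cleaves cystathionine to release cysteine. Glutamate-cysteine ligase, made of the catalytic subunit GCLC and the modifier subunit GCLM, and then glutathione synthetase (GSS) build glutathione from that cysteine. NRF2 is held at a low level by KEAP1, which hands it to the proteasome; in oxidative stress it escapes, enters the nucleus and binds antioxidant response elements of genes for glutathione, thioredoxin and quinone metabolism. ER stress is known to act on this network by another route as well, through the kinase PERK and the transcription factor ATF4, and CTH is a known ATF4 target.

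RNA-Seq libraries held 101 to 167 M counts (M, mega) and Ribo-Seq libraries 4.39 to 29.2 M. Untreated RNA-Seq replicate 1 stood apart: it had counts for 53489 entries, where the remaining 10 of that assay had 38264 to 40331. The 5 RNA-Seq libraries labelled replicate 1, which include both thapsigargin libraries, lay all below the other 6 for 2571 of 41130 tested genes (6.25%) and all above them for 1618 (3.93%). Of glial markers, VIM, NES, CD44 and S100B had medians of 1433, 861, 972 and 162 CPM (counts scaled to a library total of 1 M) over the RNA-Seq libraries, while GFAP, AQP4 and SOX9 had 1.76, 0.039 and 0.199 CPM. The blood marker PTPRC had a median of 0.406 CPM, the endothelial marker PECAM1 0.23 CPM and the epithelial marker EPCAM 0.0159 CPM, while the keratins KRT8 and KRT18 had 12.1 and 60.2 CPM.

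In RNA-Seq, CTH and CBS rose after 6 h of tunicamycin, and none of the other 8 genes passed an adjusted p under 0.05 (edgeR quasi-likelihood test, Benjamini-Hochberg over all 41130 tested genes). That is 2 of 10, where 1.5% of all tested genes were called. The low-count filter let a gene pass on 1 library alone, and without untreated replicate 1 it kept 31144 genes. The RNA shares over 41130 genes, here and elsewhere, therefore count many genes that were tested only with that library. Shares without those genes are not given, so 1.5% is a loose comparison for the 10. Of the 10 genes, 8 had positive changes and the median log2 fold change was 0.53, against a median of -0.27 over all tested genes. Without untreated replicate 1 the median over all tested genes, then 31144, was -0.01, and that of the 10 is not given here. The distance from -0.27 is therefore not read as a shift of the 10 genes. At 6 h against 2 h of tunicamycin, which compares no untreated library, the medians were 0.34 for the 10 and 0.0 over all genes. CTH, CBS, GCLC and NFE2L2, 4 of 10, lay higher in all tunicamycin libraries than in any untreated one, as did 10.5% of all tested genes. After 2 h of tunicamycin edgeR called 0 of 10, where 0.00973% of all tested genes were called. At 2 h, CTH and NFE2L2 had an unadjusted p under 0.05, as did 3315 of all 41130 genes, and DESeq2 called CTH alone. Levels are CPM with TMM scaling (trimmed mean of M-values), not corrected for gene length, and are compared only within a gene and an assay. In bulk libraries, a change in few cells and a smaller change in all cells cannot be told apart.

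CTH (chr1:70411268-70439851, GRCh38) had the largest RNA change of the 10 at both tunicamycin times. Its RNA stood at 41.7, 30.6 and 41 CPM after 6 h of tunicamycin, at 6.05, 10.8 and 11.1 CPM after 2 h, and at 4.75, 2.63 and 3.34 CPM in untreated cells (replicates 1, 2 and 3). Every 6 h library was above every 2 h library, and every 2 h library above every untreated one. At 6 h the mean was 37.8 ± 6.18 CPM, against 3.57 ± 1.08 CPM in untreated cells (SD, n = 3 each). The log2 fold change at 6 h was 3.40 ± 0.33 (SE), with an adjusted p of 0.00119 by edgeR, and 3.67 with an adjusted p of 0.00233 without untreated replicate 1. Within replicate numbers 1, 2 and 3 the log2 difference in RNA was 3.13, 3.54 and 3.62. At 2 h the log2 fold change was 1.38 ± 0.307 with an adjusted p of 0.548 by edgeR; DESeq2 gave 1.35 with an adjusted p of 0.0354. Within numbers 1, 2 and 3 the 2 h difference was 0.35, 2.04 and 1.74, smallest in the pair that holds untreated replicate 1; without that library the 2 h log2 fold change was 1.66 (adjusted p 0.499).

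From 2 h to 6 h of tunicamycin CTH RNA rose by a log2 of 2.02 ± 0.312 (adjusted p 0.0183, edgeR) and CBS RNA by 1.67 ± 0.306 (adjusted p 0.039). These were the 2 of 10 called between the times, where 0.742% of all tested genes were called. Leaving out 1 of 5 libraries, namely 2 h replicate 2 or 3 or any 6 h replicate, took the CTH call past the threshold (adjusted p 0.0503 to 0.103), with the log2 fold change between 1.93 and 2.16. For CBS, leaving out any 1 of the 6 did so (adjusted p 0.0983 to 0.206, log2 fold change 1.54 to 1.85).

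CTH footprints also rose at 6 h, and their difference from untreated cells at 2 h had a negative sign and did not pass. After 6 h of tunicamycin CTH had 26.3, 20.3 and 24.3 footprint CPM (189, 167 and 218 counts), after 2 h 2.1, 1.28 and 1.68 CPM (29, 12 and 7 counts), and in untreated cells 7.41, 2.29 and 2.69 CPM (215, 20 and 25 counts). All 2 h values lay below all untreated values, as in 3.75% of tested genes, and all 6 h values lay above both. Footprints rose at 6 h by a log2 of 2.48 ± 0.471 against untreated cells (adjusted p 0.0314, edgeR) and by 3.79 ± 0.514 against 2 h (adjusted p 0.00521). The change at 2 h against untreated cells was -1.31 ± 0.485 (adjusted p 1.0), and -0.53 (adjusted p 1.0) without untreated replicate 1, the highest of the untreated libraries. CTH was the 1 member of 10 called at 6 h in Ribo-Seq, against 0.84% of all 19411 tested genes, and the 1 of 10 called between 6 h and 2 h, against 0.752%. At 2 h, edgeR and DESeq2 each called 0 of 10, where edgeR called 0 of 19411 genes. CTH alone of the 10 had an unadjusted p under 0.05, as did 619 of the 19411 genes.

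The 6 h footprint call of CTH depended on single libraries: leaving out untreated replicate 2 or 3, or any 6 h replicate, gave log2 fold changes of 2.20 to 2.58 with adjusted p of 0.0996 to 0.125. Without untreated replicate 1, the deepest Ribo-Seq library, it was 3.29 (adjusted p 0.0041). The 6 h against 2 h footprint call was lost without 2 h replicate 2 (3.61, adjusted p 0.0551). Translational efficiency, how far footprints moved relative to RNA, was read from the interaction term of an edgeR model of both assays. For CTH it was -2.55 ± 0.594 after 2 h of tunicamycin on the log2 scale (unadjusted p 0.000481, adjusted p 1.0) and -0.74 ± 0.556 after 6 h (adjusted p 1.0). Over 20 alternatives the 2 h value was -2.94 to -1.80 and the 6 h value -1.13 to 0.02, and none passed; without untreated Ribo-Seq replicate 1 the 2 h value was -1.80. No member passed for tunicamycin, and over all 18500 genes tested edgeR called 0 at either time. DESeq2 called 0 of the 10. CTH had an unadjusted p under 0.05 at 2 h, as did 726 of the 18500 genes. CBS had one at both times, where 686 genes did at 6 h. The CBS values rest on 35 footprints in all, 19 of them in 1 tunicamycin library at 6 h, and are not read as a change. The 2 h footprint levels of CTH rest on 7 to 29 counts.

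CBS (chr21:43053191-43076873, GRCh38) rose in RNA at 6 h but hardly appeared among footprints. Its RNA was 9.09, 7.25 and 8.41 CPM after 6 h of tunicamycin, 2.07, 3.18 and 2.52 CPM after 2 h, and 3.12, 1.65 and 1.89 CPM in untreated cells. The 6 h libraries lay above all 2 h and untreated libraries, which overlapped with each other. The log2 fold change at 6 h was 1.89 ± 0.308 (adjusted p 0.0159, edgeR), and 2.23 (adjusted p 0.00521) without untreated replicate 1. The call was lost when untreated replicate 2 or 3 or any 6 h replicate was left out, with a log2 fold change of 1.72 to 1.95 and adjusted p of 0.0532 to 0.082. At 2 h the log2 fold change was 0.22 ± 0.3 (adjusted p 0.784), and 0.56 (adjusted p 0.866) without untreated replicate 1.

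In Ribo-Seq, CBS had 2, 2 and 19 counts after 6 h of tunicamycin, 9, 1 and 1 after 2 h, 0 at both thapsigargin times, and 0, 1 and 0 in untreated cells. The 11 libraries held 35 CBS footprints in all, 19 of them in 1 library, and 6434 CBS RNA-Seq counts. A count of 0 allows up to 3 counts (counting error only). Scaled by the library total without TMM, unlike the other levels, that is 0.103 and 0.307 footprint CPM in untreated replicates 1 and 3. In the thapsigargin libraries at 2 h and 6 h it is 0.392 and 0.471 CPM. No fold is given for CBS footprints, and no change in them was detectable at this depth. GRCh38 carries a near-identical copy of CBS, and reads that fit both can be split or dropped in counting, most of all the 27 to 33 nt fragments of Ribo-Seq. The CBS values of both assays are uncertain for that reason, and its part in them was not tested.

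**Figure D1:**
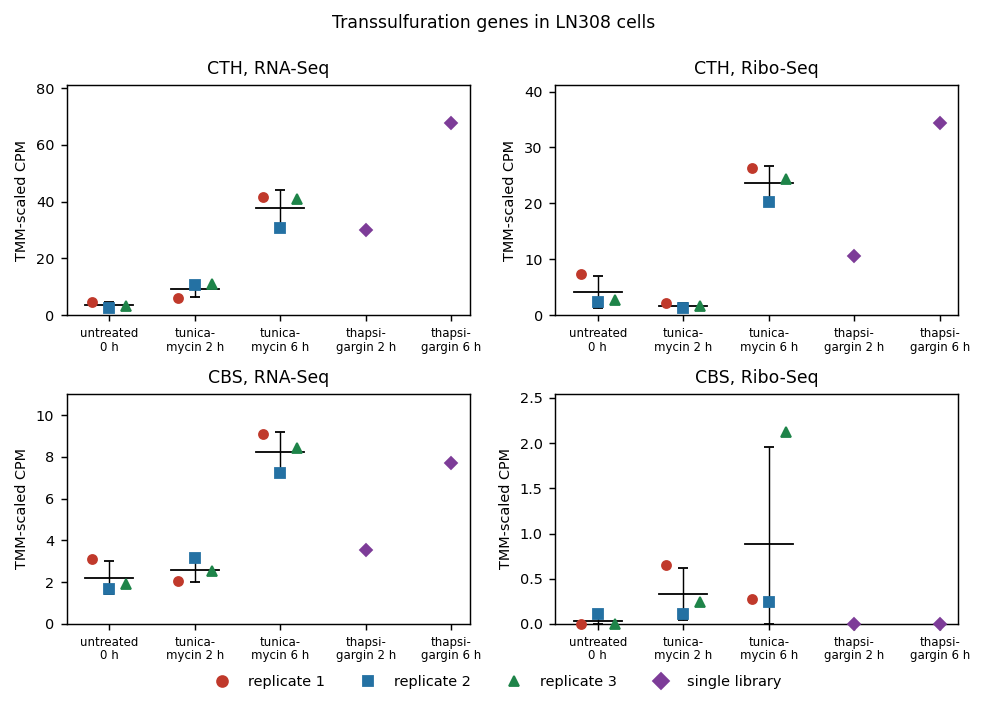
TMM-scaled CPM of CTH and CBS in each library of RNA-Seq (left) and Ribo-Seq (right), by treatment and time; symbols mark the replicate number, lines the mean and bars ± 1 SD of 3 libraries, cut at 0. CTH RNA is 30.6 to 41.7 CPM after 6 h of tunicamycin and 2.63 to 4.75 CPM in untreated cells, its footprints lie lowest at 2 h of tunicamycin, and the CBS footprint panel rests on 0 to 19 counts per library.

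Promoter sequence of both genes is shown because they are the 2 that rose. RefSeq promoter windows, 250 bases before to 50 after a gene's start on GRCh38.p14, were found for 8 of the 10 genes (12 windows); GSS and HMOX1 have none there. The antioxidant response element core TGACNNNGC, searched on both strands, was present in 4 of the 12 windows, belonging to CBS, GCLM and TXNRD1, and in 13.3% of all 35116 windows. The C/EBP-ATF element TGATGNAA, which ATF4 is known to bind, was present in 0 of the 12 and in 3.62% of all windows. A match is a description of letters and no sign of binding, and no match says only that these letters are not in this window. The lines give 120 bases before the start and the first 10 of the gene, 5′ to 3′ on the gene's strand, with the antioxidant response element core in capitals; CTH (chr1:70411148-70411277, plus strand) has none, and the first CBS window (chr21:43076368-43076497, minus strand) has 1.
CTH: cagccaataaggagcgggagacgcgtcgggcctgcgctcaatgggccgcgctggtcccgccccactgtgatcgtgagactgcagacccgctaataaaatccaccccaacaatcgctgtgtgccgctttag
CBS: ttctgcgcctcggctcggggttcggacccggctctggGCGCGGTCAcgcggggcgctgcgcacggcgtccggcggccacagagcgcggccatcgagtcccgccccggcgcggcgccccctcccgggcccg

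By the smallest root mean square difference of centred log2 CPM over the 11 RNA-Seq libraries, among 20642 genes averaging 50 counts or more, those with the pattern most like CTH were NFIL3 (0.418), a transcription factor of the bZIP class, and the entries ENSG00000261770 (0.446) and ENSG00000271992 (0.456). For CBS they were VLDLR-AS1 (0.214), SLC33A1 (0.236), the acetyl-CoA transporter of the ER membrane, and ARHGAP9 (0.238). The root mean square of the members' own deviations was 1.56 for CTH and 0.88 for CBS.

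The genes that build glutathione from cysteine changed less, and none of the 3 passed after tunicamycin in either assay by edgeR or DESeq2; GCLC RNA at 6 h was the 1 value with an unadjusted p under 0.05 against untreated cells. GCLC (chr6:53497341-53545101) had 66.2, 49.5 and 48.4 RNA CPM after 6 h of tunicamycin, 51.3, 35.5 and 40 CPM after 2 h, and 30.7, 35 and 36.5 CPM in untreated cells. All 6 h libraries lay above all untreated ones, with a log2 fold change of 0.68 ± 0.224 and an adjusted p of 0.181 (edgeR). With replicates 2 and 3 alone, an alternative chosen after seeing the data, it was 0.48 with an adjusted p of 0.00761. GCLC footprints overlapped, at 37.9, 36.2 and 32.2 CPM after 6 h of tunicamycin and 38.7, 22.1 and 34.7 CPM in untreated cells (0.15 ± 0.278, adjusted p 0.888).

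GCLM (chr1:93885199-93909430), the modifier subunit, was set apart by 1 library. Its RNA was 116, 155 and 128 CPM after 6 h of tunicamycin, 117, 99.7 and 117 CPM after 2 h, and 19.1, 133 and 129 CPM in untreated cells. Untreated replicate 1 was low, and the other 2 untreated libraries lay within the treated range. The log2 fold change at 6 h was 0.50 ± 0.532 (adjusted p 0.596, edgeR), and within replicate numbers 1, 2 and 3 the difference was 2.60, 0.22 and -0.01. Without untreated replicate 1 the GCLM RNA change was 0.03 at 6 h (adjusted p 0.948) and -0.22 at 2 h (adjusted p 0.921), against 0.25 ± 0.531 at 2 h with it (adjusted p 0.869). Footprints had the same low library, at 89.9, 123 and 88.9 CPM after 6 h of tunicamycin, 77.3, 105 and 58 CPM after 2 h, and 32.8, 96.6 and 94.6 CPM in untreated cells.

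GSS (chr20:34928432-34956027), which adds glycine as the last step, ranged from 64.9 to 105 RNA CPM and was not called in either assay. Its RNA was 105, 66.7 and 65.2 CPM after 6 h of tunicamycin and 64.9, 71.5 and 69.8 CPM in untreated cells, with overlapping groups (0.20 ± 0.255, adjusted p 0.661, edgeR). Replicate 1 was the high library at both tunicamycin times, with 104 CPM at 2 h against 69.3 and 71.5 CPM in replicates 2 and 3. GSS footprints were 85.9, 58.6 and 57.4 CPM after 6 h of tunicamycin and 59.6, 63.9 and 69.4 CPM in untreated cells (0.07 ± 0.252, adjusted p 0.955).

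NFE2L2 (chr2:177230303-177264727) had more RNA in every treated library than in any untreated one, but missed the threshold of the main test, which has no replicate term. Its RNA was 210, 203 and 197 CPM after 6 h of tunicamycin, 134, 171 and 182 CPM after 2 h, and 68.7, 115 and 118 CPM in untreated cells. At 6 h the log2 fold change was 1.02 ± 0.252 with an adjusted p of 0.0877 (edgeR), and at 2 h 0.69 ± 0.251 with an adjusted p of 0.548. The 6 h value passed in 4 alternatives: with the replicate number as a block (1.06, adjusted p 0.0384), with DESeq2 (1.00, adjusted p 0.00101), without untreated replicate 1 (0.81, adjusted p 0.0491), and with replicates 2 and 3 alone (0.81, adjusted p 0.000309). Within numbers 1, 2 and 3 the difference was 1.61, 0.82 and 0.74.

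NFE2L2 footprints were 184, 174 and 189 CPM after 6 h of tunicamycin, 139, 123 and 67.6 CPM after 2 h, and 116, 90.9 and 103 CPM in untreated cells. The 6 h libraries lay above all 2 h and untreated libraries, and the 2 h libraries spanned the untreated ones. The log2 fold change of footprints was 0.82 ± 0.281 at 6 h (adjusted p 0.259, edgeR) and 0.09 ± 0.279 at 2 h (adjusted p 1.0). Translational efficiency of NFE2L2 was -0.08 ± 0.347 at 6 h and -0.51 ± 0.348 at 2 h (adjusted p 1.0 at both).

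**Figure D2:**
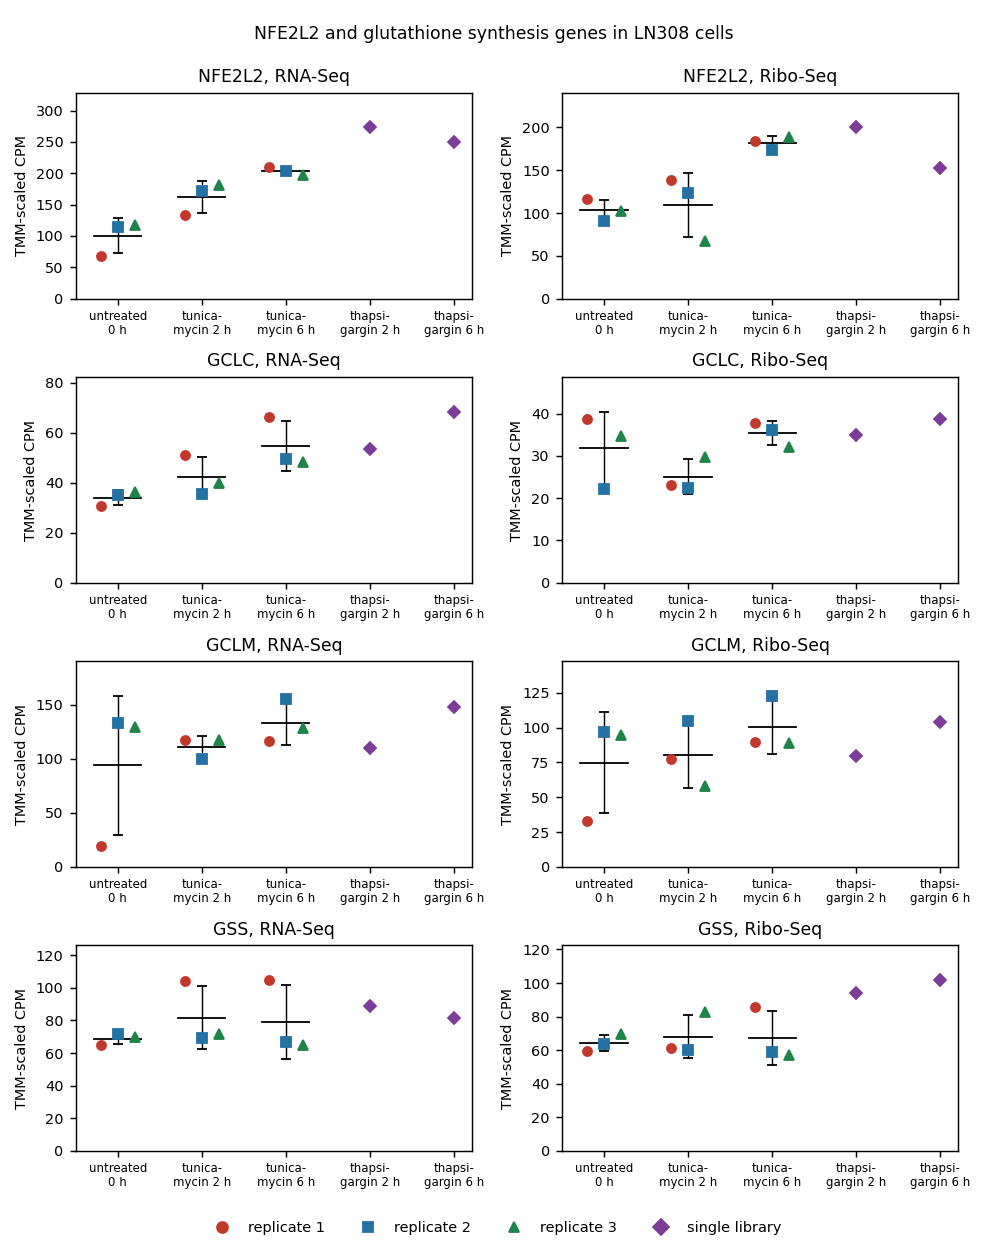
TMM-scaled CPM of NFE2L2, GCLC, GCLM and GSS in each library of RNA-Seq (left) and Ribo-Seq (right); symbols mark the replicate number, lines the mean and bars ± 1 SD of 3 libraries. NFE2L2 RNA is 197 to 210 CPM after 6 h of tunicamycin and 68.7 to 118 CPM in untreated cells, and untreated replicate 1 is the low point of GCLM, at 19.1 CPM in RNA and 32.8 CPM in footprints.

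None of the 4 NRF2 targets was called after tunicamycin against untreated cells in either assay, by edgeR or DESeq2, and 0 of the 4 had an unadjusted p under 0.05. HMOX1 (chr22:35381096-35394207), the heme-degrading oxygenase, had 4.65, 6.88 and 4.53 RNA CPM after 6 h of tunicamycin, 8.89, 7.18 and 7.77 CPM after 2 h, and 5.02, 9.94 and 6.4 CPM in untreated cells. Both times overlapped with untreated cells, and the log2 fold changes were -0.41 ± 0.3 at 6 h (adjusted p 0.445) and 0.16 ± 0.3 at 2 h (adjusted p 0.851). The 6 h libraries lay below the 2 h ones in RNA, and also in footprints, with 6.26, 13.6 and 10.3 CPM at 6 h and 14.9, 15.5 and 23.3 CPM at 2 h. Neither difference between times passed (RNA -0.57 ± 0.301, adjusted p 0.634; footprints -0.83 ± 0.385, adjusted p 0.499).

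NQO1 (chr16:69709401-69726560), a quinone reductase, showed no shared direction. Its RNA was 925, 618 and 587 CPM after 6 h of tunicamycin, 1011, 654 and 783 CPM after 2 h, and 481, 763 and 748 CPM in untreated cells. Replicate 1 was the highest library at both tunicamycin times and the lowest in untreated cells, so the groups overlapped (0.10 ± 0.289 at 6 h, adjusted p 0.868). Without untreated replicate 1 the value at 6 h was -0.09 (adjusted p 0.895). NQO1 footprints were 708, 640 and 672 CPM after 6 h of tunicamycin, 632, 593 and 588 CPM after 2 h, and 671, 551 and 655 CPM in untreated cells. Their log2 fold change was 0.11 ± 0.254 at 6 h (adjusted p 0.917, edgeR).

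TXNRD1 (chr12:104215779-104350307), the cytosolic thioredoxin reductase, had a different order of groups in replicate 1 than in replicates 2 and 3. Its RNA was 623, 946 and 949 CPM after 6 h of tunicamycin, 540, 411 and 496 CPM after 2 h, and 142, 709 and 859 CPM in untreated cells. In the full comparison the log2 fold changes were 0.56 ± 0.507 at 6 h (adjusted p 0.538) and -0.24 ± 0.506 at 2 h (adjusted p 0.868, edgeR). Without untreated replicate 1 they were 0.11 (adjusted p 0.854) and -0.69 (adjusted p 0.798). With replicates 2 and 3 alone, chosen after seeing the data, TXNRD1 changed by -0.77 at 2 h (adjusted p 0.0112) and by 1.07 between 2 h and 6 h (adjusted p 0.000402). Within numbers 1, 2 and 3 the 2 h difference was 1.92, -0.79 and -0.79. Footprints were 454, 1102 and 859 CPM at 6 h, 360, 688 and 348 CPM at 2 h, and 239, 753 and 774 CPM in untreated cells, with untreated replicate 1 again the lowest.

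SRXN1 (chr20:646615-653200), the sulfiredoxin that restores oxidised peroxiredoxins, split by replicate number in RNA. It had 0.277, 6.71 and 5.94 RNA CPM after 6 h of tunicamycin, 0.265, 3.77 and 4.25 CPM after 2 h, and 0.194, 7.07 and 7.21 CPM in untreated cells. The thapsigargin libraries, also labelled replicate 1, had 0.132 CPM at 2 h and 0.214 CPM at 6 h. The 5 libraries labelled replicate 1 held 14 to 42 SRXN1 counts and the other 6 held 455 to 876. SRXN1 was the 1 of 10 members for which the 5 all lay below the others, as 6.25% of tested genes did. Changes over all libraries therefore have wide errors (-0.16 ± 1.26 at 6 h, adjusted p 0.952; -0.80 ± 1.27 at 2 h, adjusted p 0.817). Without untreated replicate 1 they were -0.71 (adjusted p 0.809) and -1.35 (adjusted p 0.921). With replicates 2 and 3 alone the value was -0.81 at 2 h (adjusted p 0.0166) and 0.66 between 2 h and 6 h (adjusted p 0.00952).

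SRXN1 footprints were also lower in every library labelled replicate 1 than in any labelled 2 or 3. They were 12.9, 26.5 and 14.5 CPM after 6 h of tunicamycin, 7.24, 25.5 and 17.1 CPM after 2 h, and 0.689, 28.2 and 18.4 CPM in untreated cells. The 3 libraries labelled replicate 1 had a median of 7.24 CPM and the other 6 a median of 21.9 CPM, while the thapsigargin Ribo-Seq libraries, which carry no number, had 7.79 and 13.8 CPM. Untreated replicate 1 was the lowest, with 20 counts. Footprint changes were 0.20 ± 1.01 at 6 h and 0.08 ± 1.01 at 2 h (adjusted p 0.966 and 1.0, edgeR). What sets the libraries labelled replicate 1 apart is not stated in the labels, and its part in these values was not tested.

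**Figure D3:**
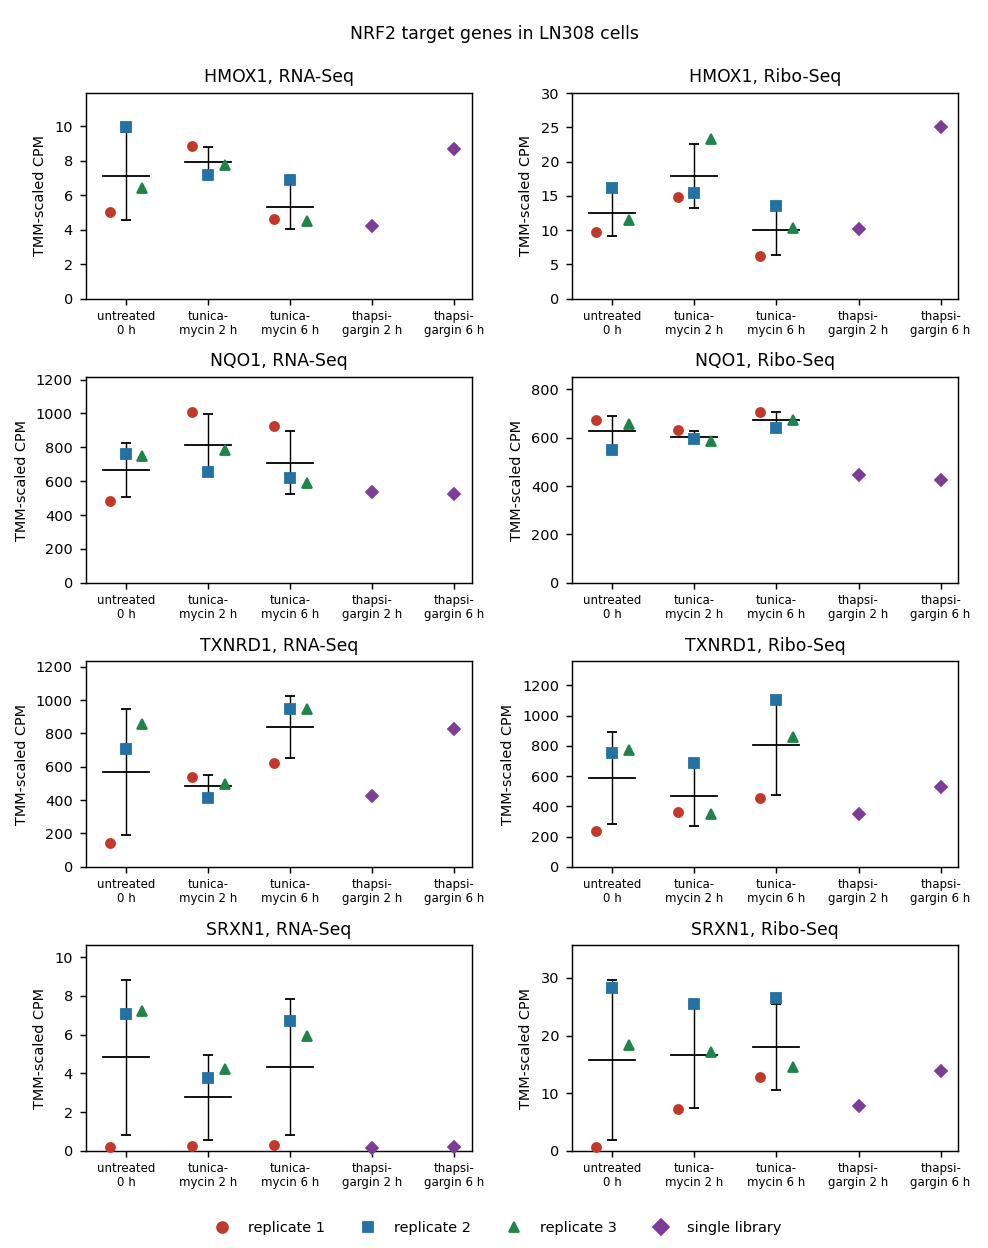
TMM-scaled CPM of the NRF2 targets HMOX1, NQO1, TXNRD1 and SRXN1 in each library of RNA-Seq (left) and Ribo-Seq (right); symbols mark the replicate number, lines the mean and bars ± 1 SD of 3 libraries. The treated and untreated groups overlap in all panels of tunicamycin at 6 h, and SRXN1 RNA is 0.132 to 0.277 CPM in all libraries labelled replicate 1, including thapsigargin, and 3.77 to 7.21 CPM in the others.

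Promoter windows of GCLM and TXNRD1 are shown because they hold the element core, in genes that were not called after tunicamycin in the main test. The stretches are GCLM (chr1:93909421-93909550, minus strand) and both TXNRD1 starts (chr12:104215659-104215788 and chr12:104286912-104287041, plus strand), in the same layout, with each core in capitals. The GCLM core began 34 bases before the start. The first TXNRD1 window held cores 99 and 8 bases before its start, and the second window held 1 at 102 bases before.
GCLM: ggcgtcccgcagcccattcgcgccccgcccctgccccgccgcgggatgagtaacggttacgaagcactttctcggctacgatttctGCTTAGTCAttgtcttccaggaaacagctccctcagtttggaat
TXNRD1 first start: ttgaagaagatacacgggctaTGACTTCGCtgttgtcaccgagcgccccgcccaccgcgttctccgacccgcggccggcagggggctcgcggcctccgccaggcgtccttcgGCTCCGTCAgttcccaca
TXNRD1 second start: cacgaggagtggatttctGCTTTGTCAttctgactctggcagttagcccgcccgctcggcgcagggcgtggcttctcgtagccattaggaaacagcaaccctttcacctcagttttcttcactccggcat

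CTH rose at both thapsigargin times in RNA and at 6 h in footprints, and CBS rose at 6 h in RNA. Each thapsigargin group was 1 library, so these tests borrow the spread of the other groups and have no replicate check. A single library often falls outside the range of 3 libraries. The share of all genes for which thapsigargin did so is not given here. A value above or below such a range is therefore no sign of a change by itself. CTH RNA was 30.1 CPM at 2 h and 67.6 CPM at 6 h, against 4.75, 2.63 and 3.34 CPM in untreated cells. The log2 fold change was 3.07 ± 0.387 at 2 h (adjusted p 0.0204, edgeR) and 4.24 ± 0.389 at 6 h (adjusted p 0.00169). The 2 h call was lost without untreated replicate 2 (2.90, adjusted p 0.103) or replicate 3 (3.03, adjusted p 0.0965), and kept without replicate 1 (3.27, adjusted p 0.0203). CTH was the 1 of 10 called in RNA at 2 h, against 0.0997% of all genes tested.

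At 6 h of thapsigargin CTH and CBS were called in RNA, 2 of 10 against 1.79% of all genes tested. CBS RNA was 7.72 CPM at 6 h and 3.53 CPM at 2 h, against 3.12, 1.65 and 1.89 CPM in untreated cells. The 6 h log2 fold change was 1.79 ± 0.39 (adjusted p 0.0493, edgeR), just inside the threshold. It was 1.67 (adjusted p 0.0606) with a replicate block, 1.76 (adjusted p 0.0596) with relative log expression scaling, 1.62 (adjusted p 0.137) without untreated replicate 2 and 1.69 (adjusted p 0.116) without replicate 3. The call was kept without untreated replicate 1 (2.12, adjusted p 0.0102), with DESeq2 (1.76, adjusted p 0.00307) and with no low-count filter (1.80, adjusted p 0.0431). NFE2L2 RNA was 273 CPM at 2 h and 250 CPM at 6 h, above the 68.7 to 118 CPM of untreated cells, with log2 fold changes of 1.44 ± 0.33 (adjusted p 0.173) and 1.32 ± 0.331 (adjusted p 0.0772). The NFE2L2 value at 2 h passed with DESeq2 (1.38, adjusted p 0.00368). Its value at 6 h passed with the block (1.58, adjusted p 0.0406), without untreated replicate 1 (1.1, adjusted p 0.0267) and with DESeq2 (1.31, adjusted p 0.00225).

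Of the glutathione genes, GCLC RNA was 53.4 CPM at 2 h of thapsigargin and 68.5 CPM at 6 h, above the 30.7 to 36.5 CPM of untreated cells. The 6 h log2 fold change was 1.01 ± 0.3 (adjusted p 0.122, edgeR), and DESeq2 gave 0.99 with an adjusted p of 0.0226. GCLM RNA was 110 and 148 CPM at 2 h and 6 h, against 19.1, 133 and 129 CPM in untreated cells (0.66 ± 0.724 at 6 h, adjusted p 0.593). GSS RNA was 88.9 and 81.6 CPM, above the 64.9 to 71.5 CPM of untreated cells, and did not pass (0.37 ± 0.354 at 2 h, adjusted p 0.594). Both thapsigargin RNA-Seq libraries are labelled replicate 1. GSS RNA in replicate 1 was also high in tunicamycin, at 104 and 105 CPM, but not in untreated cells, at 64.9 CPM. TXNRD1 RNA, at 423 and 827 CPM, lay within the 142 to 859 CPM of untreated cells.

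In Ribo-Seq, CTH had 10.6 CPM (91 counts) at 2 h of thapsigargin and 34.3 CPM (229 counts) at 6 h, against 7.41, 2.29 and 2.69 CPM in untreated cells. The log2 fold change of footprints was 1.33 ± 0.602 at 2 h (adjusted p 0.863, edgeR) and 3.02 ± 0.575 at 6 h (adjusted p 0.0285). Leaving out untreated replicate 2 (2.74, adjusted p 0.0816) or replicate 3 (2.79, adjusted p 0.101) ended the 6 h call, and without replicate 1 it was 3.82 (adjusted p 0.00344). Without replicate 1 the 2 h value was 2.12 (adjusted p 0.19). At 6 h CTH was the 1 of 10 called, against 0.974% of 19411 genes. At 2 h edgeR and DESeq2 each called 0 of 10, where edgeR called 0.0824% of genes. CTH and NFE2L2 had an unadjusted p under 0.05 at 2 h, as did 1062 of the 19411 genes. GSS footprints were 93.8 CPM at 2 h and 102 CPM at 6 h, above the 59.6 to 69.4 CPM of untreated cells (0.54 ± 0.345 and 0.66 ± 0.344, adjusted p 0.863 and 0.406). NFE2L2 footprints were 200 CPM at 2 h and 153 CPM at 6 h, above the 90.9 to 116 CPM of untreated cells (0.95 ± 0.376 and 0.56 ± 0.383, adjusted p 0.863 and 0.516). GCLM footprints were 104 CPM at 6 h, above the 32.8 to 96.6 CPM of untreated cells (0.48 ± 0.521, adjusted p 0.693). None of these passed the test.

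NQO1 footprints were 445 CPM at 2 h of thapsigargin and 427 CPM at 6 h, below the 551 to 671 CPM of untreated cells, and did not pass (-0.49 ± 0.37 and -0.55 ± 0.371, adjusted p 0.863 and 0.513). HMOX1 footprints were 25 CPM at 6 h and 10.2 CPM at 2 h, against 9.75, 16.1 and 11.5 CPM in untreated cells (1.01 ± 0.511 at 6 h, adjusted p 0.398).

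For translational efficiency after thapsigargin, edgeR and DESeq2 called 0 of 10 at both times, with 0 at an unadjusted p under 0.05; edgeR called 0.00541% of 18500 genes at 2 h and 0 at 6 h. The CTH value was -1.48 ± 0.794 at 2 h and -1.02 ± 0.783 at 6 h (adjusted p 1.0 and 0.646).

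The agents were also compared directly at the same times, each at its own dose. At 2 h CTH was higher in thapsigargin than in any tunicamycin library in both assays. The RNA difference was 1.69 ± 0.394 on the log2 scale (adjusted p 0.412, edgeR) and the footprint difference 2.63 ± 0.606 (adjusted p 0.36). Neither passed in edgeR, while DESeq2 called the footprint difference (2.65, adjusted p 0.0433). At 6 h the CTH difference was 0.84 ± 0.406 in RNA (adjusted p 0.892) and 0.54 ± 0.61 in footprints (adjusted p 0.819). edgeR called 0 of 10 in each of these 4 comparisons, where 0.0267%, 0, 0.0258% and 0.0206% of all genes were called in RNA at 2 h, RNA at 6 h, footprints at 2 h and footprints at 6 h. At an unadjusted p under 0.05 there were 1, 0, 2 and 1 members, and DESeq2 called 0, 0, 1 and 0. Over all genes 2202 and 2341 of 41130 in RNA and 733 and 1487 of 19411 in footprints had an unadjusted p under 0.05 at 2 h and 6 h.

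**Figure D4:**
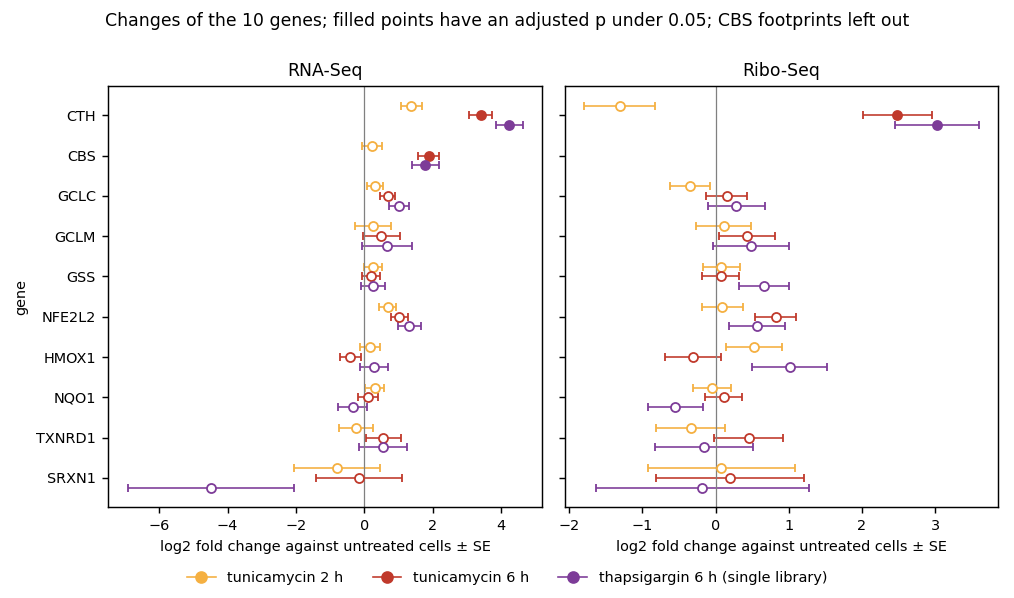
Log2 fold changes of the 10 genes against untreated cells in RNA-Seq (left) and Ribo-Seq (right), after 2 h and 6 h of tunicamycin and 6 h of thapsigargin; bars are ± 1 SE and filled points have an adjusted p under 0.05 by edgeR. CTH and CBS are filled in RNA at 6 h and CTH in footprints at 6 h, CTH footprints at 2 h of tunicamycin lie at -1.31, and CBS footprints are left out because they rest on 35 counts in all.

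Another 92 genes of the same pathways, in 5 lists, were read in the same fits. Leaving out single libraries was not examined for these genes, so how far their calls rest on 1 library is not given here. After 2 h of tunicamycin edgeR called 0 of the 92 in RNA, with 8 at an unadjusted p under 0.05 and 2 called by DESeq2. It called 0 of the 89 tested in Ribo-Seq, with 3 at an unadjusted p under 0.05 and 0 called by DESeq2. Over all genes 3315 of 41130 in RNA and 619 of 19411 in Ribo-Seq had an unadjusted p under 0.05 by edgeR, shares near those of the lists. The shares called by DESeq2 over all genes are not given here. After 6 h of tunicamycin 6 of the 92 were called in RNA, all higher, where 1.5% of all tested genes were called in either direction, and 4 of the 89 tested in Ribo-Seq, all higher, where 0.84% were. Among the 15 genes of transsulfuration and sulfur amino acid metabolism, 1 rose and 0 fell in RNA. It was GOT1, the cytosolic aspartate aminotransferase, at 213 ± 46.1 CPM after 6 h of tunicamycin and 33.9 ± 11 CPM in untreated cells (SD, n = 3 each; log2 fold change 2.65 ± 0.294, adjusted p 0.0019, edgeR). GOT1 footprints rose as well (2.47 ± 0.254, adjusted p 0.000922). The list's median log2 fold change in RNA was 0.05, against -0.27 over all genes. At 6 h against 2 h it was -0.1, against 0.0 over all genes. The all-gene median at 6 h against untreated cells was -0.01 without untreated replicate 1. List medians above -0.27 are therefore not read as a shift of a list.

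Among the 23 genes of glutathione use and turnover, 3 rose and 0 fell in RNA after 6 h of tunicamycin, beside the 1.5% of all genes. The list median log2 fold change was -0.06, against -0.27 over all genes. At 6 h against 2 h it was -0.1, against 0.0 over all genes. CHAC1, which degrades glutathione, averaged 64.1 ± 6.22 CPM after 6 h of tunicamycin and 4.1 ± 2.68 CPM in untreated cells (3.97 ± 0.566, adjusted p 0.00804). It stood at 58.5 ± 20.8 CPM at 2 h. The glutaredoxin GLRX, which uses glutathione to reduce protein disulfides, averaged 30.9 ± 4.7 CPM after 6 h and 5.48 ± 0.474 CPM in untreated cells (2.49 ± 0.222, adjusted p 0.00106). GLRX2, the mitochondrial glutaredoxin, changed by 2.01 ± 0.377 (adjusted p 0.0282). In footprints GLRX (2.03 ± 0.414, adjusted p 0.0426) and GLRX2 (1.90 ± 0.367, adjusted p 0.0323) rose, 2 of 21 tested, beside 0.84% of all genes. Of the 21, 6 had an unadjusted p under 0.05 and DESeq2 called 4. CHAC1 footprints were not called by edgeR, though they averaged 121 ± 3.16 CPM after 6 h (118 to 124) and 13 ± 11.7 CPM in untreated cells (1.31 to 24.6).

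Of the 14 genes of the thioredoxin and peroxiredoxin system 1 rose and 0 fell at 6 h in RNA, beside 1.5% of all genes, and likewise in footprints, beside 0.84%. This was SESN2, a sestrin known as a stress-induced inhibitor of mTORC1 signalling, at 287 ± 66.9 RNA CPM after 6 h of tunicamycin and 20.2 ± 8.38 CPM in untreated cells (3.83 ± 0.528, adjusted p 0.00693). Its footprints rose by 3.54 ± 0.596 (adjusted p 0.0239). Of 26 other NRF2 targets 1 rose in RNA, UGDH, the UDP-glucose dehydrogenase (1.40 ± 0.251, adjusted p 0.0241), a count of 1 beside the same 1.5%, and edgeR called 0 in footprints, with 3 at an unadjusted p under 0.05 and 3 called by DESeq2. Of the 14 NRF2 regulators and partners edgeR called 0 at 6 h of tunicamycin in either assay. At an unadjusted p under 0.05 there were 3 in RNA and 1 in footprints, and DESeq2 called 1 and 0. Over all genes 7148 of 41130 in RNA and 2342 of 19411 in footprints had an unadjusted p under 0.05 at 6 h of tunicamycin. The medians of these 3 lists in RNA at 6 h of tunicamycin were 0.05, 0.15 and 0.34, in the order given, against -0.27 over all genes. At 6 h against 2 h they were -0.08, -0.12 and 0.02, against 0.0 over all genes.

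After 6 h of thapsigargin GOT1, CHAC1, GLRX, GLRX2, SESN2 and UGDH were again the genes of these lists called in RNA, 6 of 92, all higher, beside 1.79% of all genes, in a comparison that shares its untreated libraries with tunicamycin. In footprints 3 of 89 were called, beside 0.974% of all genes. GOT1 and SESN2 rose, and MAT2A, which makes S-adenosylmethionine from methionine, fell by 2.88 ± 0.554 on the log2 scale (adjusted p 0.0292, edgeR). MAT2A footprints stood at 20.7 CPM in the thapsigargin library at 6 h, against 152 ± 40.9 CPM in untreated cells (SD, n = 3). MAT2A RNA was also lower, at 126 CPM at 6 h of thapsigargin against 166 to 364 CPM in untreated cells, and was not called. After 6 h of tunicamycin its footprints averaged 92 ± 17.4 CPM, not called either.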

How the data were processed

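RNA-Seq used total RNA, and Ribo-Seq used 27 to 33 nt fragments of 80S monosomes after 5 min of cycloheximide at 0.1 mg/ml, per the labels' protocols. The deposited count of each of 58278 entries in each of 22 libraries is a whole number of reads. The submitters' processing notes name STAR 2.5.4b, HTSeq, DESeq2 and build GRCh38. What each did, the annotation used and whether strand was counted is not given in the sources used here, so overlapping and antisense genes cannot be told apart. No libraries of a group agreed within sampling noise (chi-square per degree of freedom 25.8 to 543.2).

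The main test was edgeR 4.0.16 in R 4.3.3: filterByExpr (minimum count 10), TMM, robust glmQLFit over all groups of an assay and glmQLFTest. Benjamini-Hochberg adjustment ran over every tested gene: 41130 in RNA-Seq, 19411 in Ribo-Seq and 18500 for translational efficiency, where a gene had to pass the filter in each assay. A call is an adjusted p under 0.05. Levels are TMM-scaled CPM, and SE is the log2 fold change divided by the square root of F. Each lone thapsigargin library was assumed to vary like the other groups.

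Pairing of replicate numbers was judged by correlating the deviations of libraries with 1 number from their group means. All pairs passed 0.1 for RNA-Seq at 6 h against untreated cells (0.211 to 0.444), RNA-Seq at 6 h against 2 h (0.699 to 0.84) and the 3 Ribo-Seq pairings (0.138 to 0.473), but not RNA-Seq at 2 h against untreated cells (0.073 in replicate 2). Thapsigargin Ribo-Seq labels carry no number. The main test still compared group means with no replicate term, and pairing entered only through the replicate block among the alternatives.

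Alternatives were library size alone, relative log expression (RLE) scaling, no low-count filter, DESeq2 1.42.0, only the groups compared, a replicate block and each replicate left out. Those chosen after seeing the data were replicates 2 and 3 alone and a joint low-count filter for translational efficiency. Fits were also run on simulated counts, which had less spread than the data and no difference between replicate numbers. That run therefore does not show how the fits perform on these libraries. The members, lists and tests were chosen with earlier results of these data known. The rule names all 10 members, at most 3 called genes of each further list per comparison (those with the largest change), and the 3 genes nearest in RNA pattern to CTH and CBS. Cell markers printed were chosen after their values were seen.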

Additional observations from a re-analysis of the deposited data

Results flagged for a closer look

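The response of CTH differed between the times of tunicamycin, tested as 6 h against 2 h in edgeR over all genes. It was higher at 6 h by a log2 of 2.02 in RNA (adjusted p 0.0183, in 3 of 3 libraries above all 2 h libraries) and by 3.79 in footprints (adjusted p 0.00521, likewise). CBS RNA was higher at 6 h than at 2 h by a log2 of 1.67 (adjusted p 0.039, in 3 of 3 libraries above all 2 h libraries). In RNA, 4 of the 10 members lay above all 2 h libraries in this way and 1 lay below. The share of all genes that did so is not given here, so this order does not mark out CTH and CBS. The CTH RNA call was lost when 2 h replicate 2 or 3 or any 6 h replicate was left out. The CBS call was lost when any compared library was left out, and the CTH footprint call without 2 h replicate 2.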

How the results depend on the processing

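The 10 changes called among the members kept their sign in all 109 alternative values, and 37 of those values missed the threshold. The 170 changes not called changed sign in 169 of 1872 alternative values and passed in 21. CTH RNA at 6 h of tunicamycin was called in 13 of 13 alternatives (log2 fold change 3.03 to 3.67). Scaling by library size alone moved the median of all genes in that comparison to -0.58, against -0.27 with TMM; relative to the median, CTH changed by 3.61 and 3.67, CBS by 2.09 and 2.16, and NFE2L2 by 1.35 and 1.29.

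The number of the 10 genes called in RNA moved as follows. For tunicamycin at 2 h it was 0, and 1 with DESeq2 and 4 with replicates 2 and 3 alone. For 6 h it was 2 (CTH and CBS), with NFE2L2 added under DESeq2 or the replicate block. It was 1 with library size alone or only the groups compared, 4 with replicates 2 and 3 alone, and 1 to 3 with 1 replicate left out. For 6 h against 2 h it was 2, and 0 with library size alone, 6 with replicates 2 and 3 alone, and 0 to 1 with 1 replicate left out. For thapsigargin at 2 h it was 1, and 0 with library size alone, 2 with DESeq2, and 0 to 1 with 1 untreated replicate left out. For thapsigargin at 6 h it was 2, and 1 with library size alone or RLE, 4 with DESeq2, and 1 to 3 with 1 untreated replicate left out. In Ribo-Seq, tunicamycin at 6 h gave 1, and 0 with only the groups compared; 6 h against 2 h and thapsigargin at 6 h gave 1 each, and leaving out 1 replicate gave 0 to 1 in all 3. Thapsigargin against tunicamycin at 2 h gave 0, and 1 with DESeq2 or no filter. The share of all genes called under each alternative is not given beside these counts. They show how member calls depend on the setting, and do not set the 10 genes against other genes. The cause of these moves was not tested. The replicate block changed the calls of NFE2L2 RNA at 6 h of tunicamycin (1.06, adjusted p 0.0384) and thapsigargin (1.58, adjusted p 0.0406) and of CBS RNA at 6 h of thapsigargin (1.67, adjusted p 0.0606), and no other member call. Depth limits CBS footprints (0 to 19 counts) and CTH footprints at 2 h of tunicamycin (7 to 29 counts).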
